A study of Mus musculus with 9 samples.

Results

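F3 fibroblasts are a set of *Cd34*+ stromal cells of the mouse knee that carry *Acvr2a*, *Cxcl1* and *Col15a1*. *Acvr2a* encodes a type II receptor for activins and related ligands. *Cxcl1* encodes a chemokine that draws neutrophils, and *Col15a1* a collagen found at the edge of basement membranes. The cells were chosen on measured UMIs (unique molecular identifiers, 1 per captured mRNA molecule). Cells were kept with 500 or more genes, 1000 or more UMIs and no more than 10% of UMIs from mitochondrial genes. A kept cell entered the gate with at least 1 UMI of *Cd34* and 0 of *Dpp4*, *Clic5*, *Ptprc* and *Pecam1*. In the gate, the detected genes of 5 panels of 3 genes each were counted: F1 (*Anxa8*, *Slurp1*, *Ociad2*), F2 (*Dkk2*, *Cxcl12*, *Gas6*), F3, F5 (*C7*, *Fmo2*, *Kitl*) and F6 (*Ccl11*, *Smoc2*, *Hsd11b1*). An F3 cell had at least 2 of the 3 F3 genes and more of them than of any other panel. This gave 102 F3 cells of 4788 kept cells and of 2261 cells in the gate. By the same rule 308 cells were F1, 889 F2, 34 F5 and 27 F6, together 1258 cells of the other panels, and 901 cells of the gate had no panel.

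All mice were *Gdf5-Cre;Tom;Pdgfrα-H2BGFP*, aged 11 to 12 weeks. The figure legends of the study give 11 weeks for the steady-state mice and 12 weeks for the injured ones, so age went with state. Live cells of digested knee joints were sorted either as Tom+, which descend from cells of the embryonic joint interzone that expressed *Gdf5* and carry the tdTomato reporter for life, or as Tom-GFP+, which lack that reporter and express H2BGFP from the *Pdgfrα* promoter. In the injured state the right knee had been opened 6 days earlier and a scratch made through the full thickness of the cartilage of the trochlear groove. There were 2 Tom+ and 1 Tom-GFP+ libraries of the steady state and 4 Tom+ and 2 Tom-GFP+ libraries of the injured state, made with 10x Genomics 5′ chemistry. The promoter and the sort limit both groups: a Tom-GFP+ cell outside the *Pdgfrα* domain was never collected, and Tom+ cells were collected whether or not they were fibroblasts. Within a sort each library came from its own mouse, and the Tom-GFP+ libraries came from mice that also gave a Tom+ library, but the labels do not say which. The Tom-GFP+ steady state was a single library, so the spread of the other groups stood in for its own in every test.

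Fibroblasts of the synovial sublining hold *Cd34* and *Thy1* and make the loose matrix around the vessels of the joint. Type II activin receptors bind ligand and then pass the signal through type I receptors to Smad proteins, while follistatin, encoded by *Fst*, binds activins outside the cell. Type IV collagen, laminins, nidogens and perlecan form the basement membrane, next to which collagen XV lies. *Cxcl1* is a target of NF-kB and is quickly induced by stress, so that handling of tissue can move it.

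The F3 cells had a median of 10800.5 UMIs, and the range was 1741 to 44210. Cells of the other panels had a median of 10863 UMIs. The 27 steady-state F3 cells had a median of 7373 and the 75 injured-state F3 cells one of 14189, so F3 cells of the injured state were read more deeply. The deposited libraries held 2866464 and 4751957 UMIs in the Tom+ steady state, 3338556 in the Tom-GFP+ steady state, 15033902, 11063217, 7828550 and 7956682 in the Tom+ injured state and 7397694 and 4262658 in the Tom-GFP+ injured state. Summed over the F3 cells of a library, the depth behind each level below ran from 35915 UMIs (Tom+ steady-state library 2, 5 cells) to 438812 UMIs (Tom-GFP+ injured library 1, 21 cells). Levels are given as CPM, counts per 1e6 of all UMIs summed over the cells named, with libraries as replicates. Libraries are numbered as in the labels.

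Some libraries stood apart. In Tom-GFP+ injured library 1, 9 of 21 F3 cells (42.9%) had more than 2 times the median UMIs of their library, against 16 of 135 cells of the other panels (11.9%). Over all libraries the counts were 12 F3 cells (11.8%) and 65 cells of the other panels (5.17%). No doublet caller was run, and the part of doublets in the F3 cells was not tested. The gene lists of the 3 steady-state libraries and Tom+ injured library 1 were deposited in an older format and those of the other 5 in a newer one, so that format and state nearly coincide. Pseudogenes took 2.22% to 3.74% of F3 UMIs in the steady-state libraries and 0.547% to 1.09% in the injured ones. In the other panels the values were close to these, at 2.16% to 3.40% and 0.543% to 1.08%. Barcodes were shared by 9 of 36 pairs of libraries, at most 2 in a pair and 12 in all.

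The share of F3 cells among gate cells was small in every library. In the Tom+ steady state it was 7 of 179 cells (3.91%, exact Clopper-Pearson 95% interval 1.59 to 7.89) and 5 of 273 (1.83%, 0.597 to 4.22). In the Tom-GFP+ steady state it was 15 of 238 (6.30%, 3.57 to 10.2). In the Tom+ injured state it was 13 of 399 (3.26%, 1.75 to 5.51), 13 of 303 (4.29%, 2.30 to 7.23), 8 of 192 (4.17%, 1.82 to 8.04) and 15 of 233 (6.44%, 3.65 to 10.4). The intervals of all these libraries overlap their neighbours, and Tom+ steady-state library 2 was lowest. In the Tom-GFP+ injured state it was 21 of 294 (7.14%, 4.48 to 10.7) and 5 of 150 (3.33%, 1.09 to 7.61), so the highest share and one of the lowest came from the same group. These intervals cover counting error only.

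**Figure D1:**
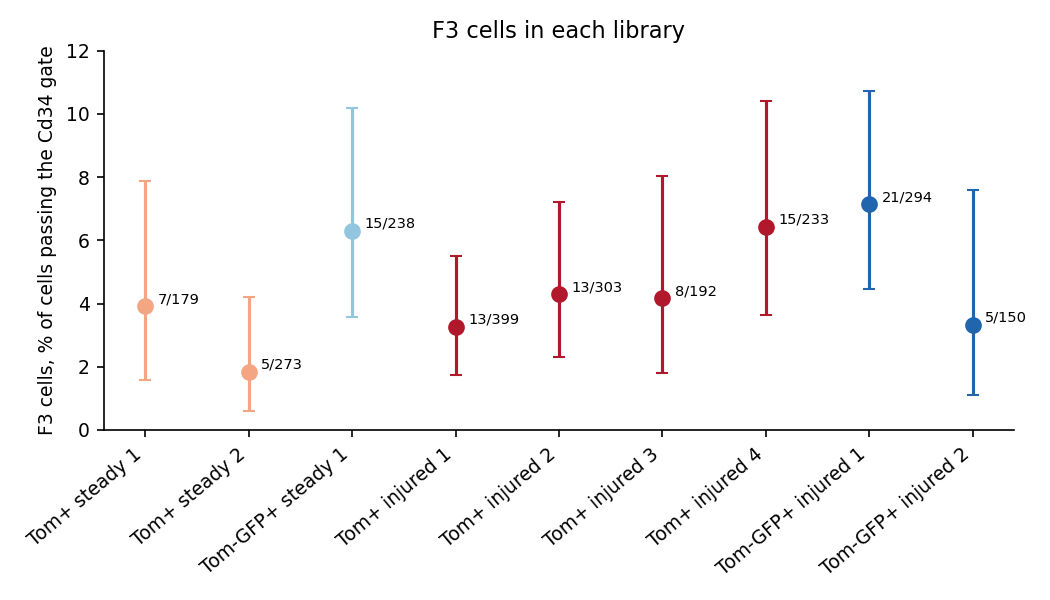
Percent of gate cells that were F3, by library and group, with exact Clopper-Pearson 95% intervals and the counts beside each point. The points lie between 1.83% and 7.14%, and the groups overlap.

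The shares of the groups did not differ beyond the spread between libraries. The mean was 2.87% ± 1.47 (SD, n = 2) in the Tom+ steady state and 4.54% ± 1.35 (SD, n = 4) in the Tom+ injured state, a log2 difference of 0.69 with a standard error of 0.64 (adjusted p = 0.467 over 6 classes of gate cells by edgeR). An exact two-sided permutation test of the difference of 1.67 percentage points gave p = 0.333, where 0.0667 is the smallest this design allows. In Tom-GFP+ cells the share was 6.30% in the steady state and 5.24% ± 2.69 (SD, n = 2) in the injured state, a log2 difference of -0.20 with a standard error of 0.79 (adjusted p = 0.890 by the same edgeR test). Between Tom+ and Tom-GFP+ cells of the injured state the log2 difference was -0.29 with a standard error of 0.57 (adjusted p = 0.756 by edgeR). These standard errors leave room for differences of 2-fold or more. The classes compared were defined by genes that injury may itself move, which was not separated from a change in cells. With every cell thinned to 5000 UMIs the shares were 2.31% ± 2.10 (SD, n = 2), 6.10%, 3.49% ± 1.31 (SD, n = 4) and 1.57% ± 2.22 (SD, n = 2) in the same order of groups. Tom-GFP+ injured library 2 then had 0 F3 cells of 135, which allows a share of up to 2.22%, and the sign of the difference between lineages turned.

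The panel genes chose the cells, so their levels are a description without a test. All 3 genes were detected in 48 F3 cells (47.1%). *Cxcl1* with *Col15a1* was the pair in 37 cells (36.3%), *Acvr2a* with *Cxcl1* in 10 and *Acvr2a* with *Col15a1* in 7. *Cxcl1* was thus read in nearly every member. By gene, *Acvr2a* (ENSMUSG00000052155, GRCm38 chromosome 2, 48814109 to 48903269) was detected in 63.7% of F3 cells and 9.70% of cells of the other panels. *Cxcl1* (ENSMUSG00000029380, chromosome 5, 90891241 to 90893115) was detected in 93.1% and 36.0%, and *Col15a1* (ENSMUSG00000028339, chromosome 4, 47208161 to 47313167) in 90.2% and 30.3%. In 70 cells with *Ptprc* and no *Pdgfra* UMIs, which should lack fibroblast mRNA, the shares were 5.71%, 18.6% and 1.43% at a median of 8390.5 UMIs. *Cxcl1* was thus the panel gene found most often in these cells. Immune cells can make *Cxcl1* themselves, so that free RNA and their own transcripts cannot be told apart in this share. Without *Cxcl1*, only 9 cells met a rule of *Acvr2a* and *Col15a1* both present and above every other panel. That rule left 2 F3 genes against 3 in each other panel, so a cell with 2 genes of another panel dropped out. This was so for 46 of the 48 members with all 3 genes, and the 9 cells do not measure the part of *Cxcl1* alone.

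The edge of the set was narrow. Of the F3 cells, 54 had 2 panel genes, and in 53 of these another panel had 1. Another 48 had all 3 genes, and in 46 of these another panel had 2. Just outside lay 433 gate cells with 2 F3 genes and 48 with all 3 that were tied or passed by another panel, and 1038 with 1 F3 gene. Membership so rested on 1 detected gene in most cells.

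Levels of the panel genes differed between libraries. *Acvr2a* was at 195.5 and 167.1 CPM in Tom+ and 169.3 CPM in Tom-GFP+ steady-state libraries. In the injured libraries it was at 22.2, 35.0, 51.9 and 76.9 CPM (Tom+) and 31.9 and 39.1 CPM (Tom-GFP+). *Col15a1* was at 326, 278 and 339 CPM in the same steady-state libraries, and between 104 and 220 CPM in the injured ones. Both genes were lower in every injured library than in any steady-state library. The rule asks for 1 UMI in cells of unequal depth, so that these levels move with the depth of the cells as well. *Cxcl1* showed no such order, at 1021, 223 and 1733 CPM in the steady state, at 1026, 972, 1089 and 451 CPM in Tom+ injured libraries, and at 1768 and 97.7 CPM in Tom-GFP+ injured libraries. A single cell of Tom-GFP+ injured library 1 held 323 of the 1726 *Cxcl1* UMIs (18.7%). *Cd34*, the gate gene, was at 1151, 807 and 1080 CPM in the steady state and 191 to 517 CPM in the injured state.

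**Figure D2:**
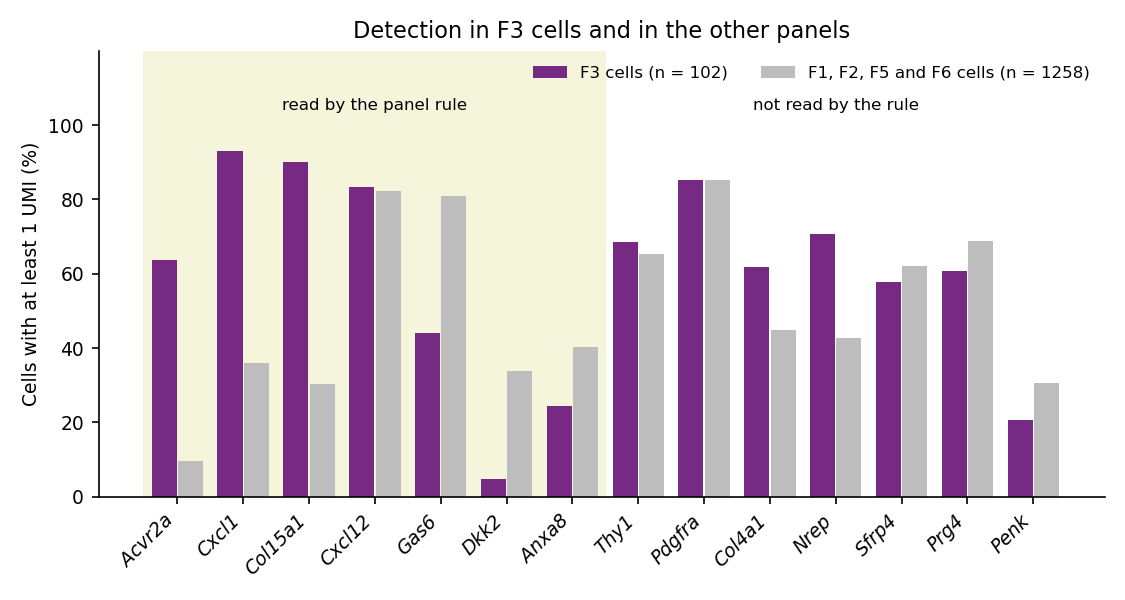
Percent of cells with at least 1 UMI of each gene, in the 102 F3 cells and the 1258 cells of the other panels. The 3 F3 panel genes set the groups apart by the rule, while *Pdgfra* and *Thy1* were detected in like shares. *Cxcl12* and *Gas6* belong to the F2 panel and were read by the rule too.

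Of genes the rule did not use to call F3, fibroblast markers were detected. All 9 pan-fibroblast markers were present. *Dcn* (decorin) was detected in 100% of F3 cells and of cells of the other panels, *Col1a1* in 100% and 99.1%, *Pdgfra* in 85.3% and 85.3%, and *Thy1* in 68.6% and 65.3%. *Dcn* and *Col1a1* UMIs were also present in 54.3% and 40% of the *Ptprc*+ cells, and *Thy1* UMIs in 1.43%, so the first pair says less about cell type than *Thy1* does. F3 cells also held genes of the F2 panel: *Cxcl12*, a chemokine of perivascular stroma, in 83.3% (82.4% in the other panels), and *Gas6* in 44.1% (80.9%). The rule counted both of these genes in every gate cell, so their shares come with the choice of cells and are a description only. Reporters followed the sort. tdTom was at 261 and 167 CPM in F3 cells of the Tom+ steady state and 349, 643, 657 and 418 CPM in the Tom+ injured state, against 0 CPM in the Tom-GFP+ steady state and 6.84 and 0 CPM in the Tom-GFP+ injured state. H2BeGFP was present on both sides of the sort, at 162 to 478 CPM in the Tom+ and 474 to 887 CPM in the Tom-GFP+ libraries.

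Markers of immune, endothelial, adipocyte, Schwann, muscle and red cells were few, while mural, tenocyte and lining markers were present. All 7 mural markers were detected. Their summed level in F3 cells was 21.7, 0 and 0 CPM in the Tom+ and Tom-GFP+ steady state, 1312, 245, 873 and 16.5 CPM in the Tom+ injured state and 3690 and 39.1 CPM in the Tom-GFP+ injured state. In the other panels it was 10.4, 15.4 and 16.9 CPM, then 453, 166, 168 and 56.5 CPM, then 431 and 67.5 CPM. F3 cells of 4 injured libraries so held more mural UMIs than the other panels did. The most abundant was *Acta2* (smooth muscle actin, also made by myofibroblasts), detected in 0 of 27 steady-state and 29 of 75 injured-state F3 cells. A single cell held 32.0% of its 1407 UMIs. *Rgs5*, a pericyte gene, was in 3 F3 cells. At least 3 of the 7 mural markers were detected in 3 F3 cells (2.94%), of which 2 came from Tom+ injured library 1, and in 9 cells of the other panels (0.715%). Of 7 endothelial markers, *Cdh5*, *Cldn5*, *Kdr* and *Tie1* were at 0, and *Plvap* made up 115 of 125 UMIs. Immune markers summed to 31 UMIs, of which 17 were *Lyz2*, adipocyte markers to 4, Schwann cell markers to 6, skeletal muscle markers to 5 and red cell markers to 1. Osteoblast markers summed to 30 UMIs with *Sp7* at 0, and chondrocyte markers to 171 with *Cnmd* and *Matn1* at 0. Tenocyte markers summed to 749 UMIs, led by *Fmod*, and were at 0 to 1032 CPM by library in F3 and 114 to 1827 CPM in the other panels. Lining markers summed to 1242 UMIs, of which 1064 were *Prg4*, and were at 141 to 2274 CPM in F3 and 446 to 4525 CPM in the other panels.

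To ask how F3 cells differ from other *Cd34*+ fibroblasts of the same knee, UMIs were summed over F3 cells and over the cells of the other panels in each library. The library was kept as a block, and the 20 genes of the gate and panels were left out. F3 cells held more *Nrep*, a small protein known from wound myofibroblasts, more *Adamts1*, a secreted metalloprotease, and more *Col5a3*, a chain of type V collagen. They held less *Sfrp4* (a secreted Wnt antagonist), *Penk* (proenkephalin), *Cdkn1c* (a cell cycle inhibitor), *Lbp* (a lipopolysaccharide binding protein) and *Prg4* (lubricin). Of 6188 genes, 21 passed an adjusted p of 0.05 by edgeR (0.339% of genes tested), 8 higher (0.129%) and 13 lower (0.21%). Without adjustment 505 had a p under 0.05, and DESeq2 called 19. Genes that vary together with the panel genes come along with the choice of cells, so these counts describe the set as chosen. The other panels were picked on genes of their own, which lowers in F3 whatever goes with those genes.

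*Nrep* (ENSMUSG00000042834) showed the difference in every library. In F3 cells it was at 391 and 111 CPM in the Tom+ steady state, 508 CPM in the Tom-GFP+ steady state, 111, 301, 251 and 280 CPM in the Tom+ injured state and 176 and 342 CPM in the Tom-GFP+ injured state. In the other panels the values were 38.8, 74.1, 73.9, 43.8, 141, 108, 220, 103 and 159 CPM in the same order. F3 was higher in 9 of 9 libraries, with means of 274 ± 131 and 107 ± 58.4 CPM (SD, n = 9), a log2 fold change of 1.32 (SE 0.22, adjusted p = 0.00736 by edgeR). Its UMIs were found in 70.6% of F3 cells and 42.7% of cells of the other panels, and in 56.4% and 28.7% after thinning to 5000 UMIs. In *Ptprc*+ cells the share was 1.43%. The call held under all 18 alternatives run for this comparison, with adjusted p up to 0.0213, cells with mural markers left out among them.

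*Col4a1* (ENSMUSG00000031502, chromosome 8, 11198423 to 11312826), a chain of type IV collagen, was also higher in 9 of 9 libraries, but its call was lost when a few cells were left out. In F3 cells it was at 543 and 167 CPM in the Tom+ steady state, 693 CPM in the Tom-GFP+ steady state, 111, 126, 156 and 187 CPM in the Tom+ injured state and 86.6 and 254 CPM in the Tom-GFP+ injured state. In the other panels it was at 155, 112, 225, 23.2, 106, 94.9, 82.1, 83.8 and 111 CPM. As a ratio, the gap was widest in Tom+ steady-state library 1, the Tom-GFP+ steady-state library and Tom+ injured library 1. It was narrowest in Tom-GFP+ injured library 1. The log2 fold change was 1.09 (SE 0.19, adjusted p = 0.00736 by edgeR). When the cells with at least 3 mural markers were left out it was 0.79 (adjusted p = 0.220 by edgeR). In the injured libraries alone the log2 fold change was 0.95 (adjusted p = 0.189 by edgeR). Mural cells make type IV collagen too. Mural UMIs in F3 were above those of the other panels in 5 libraries and below them in 4. In the steady-state libraries alone, where mural markers were at 0 to 21.7 CPM in F3, the log2 fold change of *Col4a1* was 1.35 (adjusted p = 0.0172 by edgeR). The part of mural cells in the difference was not tested, over all libraries or in the steady state alone. *Col4a2*, the partner chain, had means of 184 and 71.7 CPM and did not pass (log2 fold change 0.98, adjusted p = 0.131 by edgeR).

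*Adamts1* (ENSMUSG00000022893, chromosome 16, 85793827 to 85803113) was at 282, 111, 137, 85.8, 97.9, 86.4, 121, 91.2 and 78.1 CPM in F3 cells of the libraries in the order above. The other panels were at 66.2, 71.1, 77.0, 49.3, 40.4, 52.4, 49.8, 68.6 and 47.9 CPM. The lowest F3 value thus lay just above the highest value of the other panels. The log2 fold change was 0.92 (SE 0.17, adjusted p = 0.00804 by edgeR). It did not pass with thinned cells or in either state alone, where fewer libraries or UMIs entered (adjusted p up to 0.202 by edgeR), although the log2 fold change of *Adamts1* was then 1.24, 1.13 in the steady state and 0.85 in the injured state.

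Among the other genes that were higher, *Col5a3* had means of 458 and 253 CPM (log2 fold change 0.81, adjusted p = 0.00804 by edgeR) and was higher in 8 of 9 libraries. *Phlda1* had means of 433 and 202 CPM and was higher in 8. *Phldb1* and *Ddah1* also passed as higher.

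*Sfrp4* (ENSMUSG00000021319, chromosome 13, 19623104 to 19632994) was lower in F3 in all 9 libraries although its level varied widely. In F3 cells it was at 1043, 195, 460, 15.9, 776, 804, 3561, 779 and 3125 CPM. In the other panels it was at 2665, 1392, 1860, 93.9, 1293, 2786, 5048, 2234 and 3886 CPM. Tom+ injured library 1 was low in both sets and Tom+ injured library 4 was high in both, so library mattered more than set for its level. The log2 fold change was -1.35 (SE 0.19, adjusted p = 0.00161 by edgeR). Its UMIs were found in 57.8% of F3 cells and 62.1% of the other panels, near each other. With the rule applied to thinned cells the adjusted p was 0.0636.

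*Penk* (means 97.3 and 210 CPM, log2 fold change -1.51), *Lbp* (362 and 717 CPM, -1.17), *Cdkn1c* (52.3 and 129 CPM, -1.21) and *Cd9*, a tetraspanin (1224 and 1766 CPM, -0.60), were lower in every library. All 4 passed by edgeR. In the steady-state libraries alone *Penk*, *Lbp* and *Cdkn1c* passed (adjusted p = 0.0180, 0.000382 and 0.0347 by edgeR), and in the injured libraries alone none of the 4 did, at log2 fold changes of -1.88, -0.94, -1.04 and -0.49 in the order above. With the rule applied to thinned cells that of *Cd9* was -0.17 (adjusted p = 0.890 by edgeR). *Prg4* had means of 596 ± 684 and 1406 ± 1303 CPM (log2 fold change -1.57). It was highest in F3 cells of Tom+ injured library 1, at 2103 CPM, where the other panels held 4341 CPM, and it was higher in F3 in 1 library. With the rule applied to thinned cells its log2 fold change was -0.48 (adjusted p = 0.852 by edgeR). In the steady-state libraries alone that of *Prg4* was -1.35, near the value over all libraries, without passing (adjusted p = 0.0911 by edgeR). *Prg4* UMIs were in 60.8% of F3 cells and in 44.3% of *Ptprc*+ cells, so the share of cells says little here. *Angptl1* (-0.87, adjusted p = 0.0484 by edgeR) lost its call under 13 of 18 alternatives and *Ly6c1*, also lower, under 10. *Myoc*, *Gpnmb*, *Pmp22*, *Pcolce2* and *Agtrap* were lower too.

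**Figure D3:**
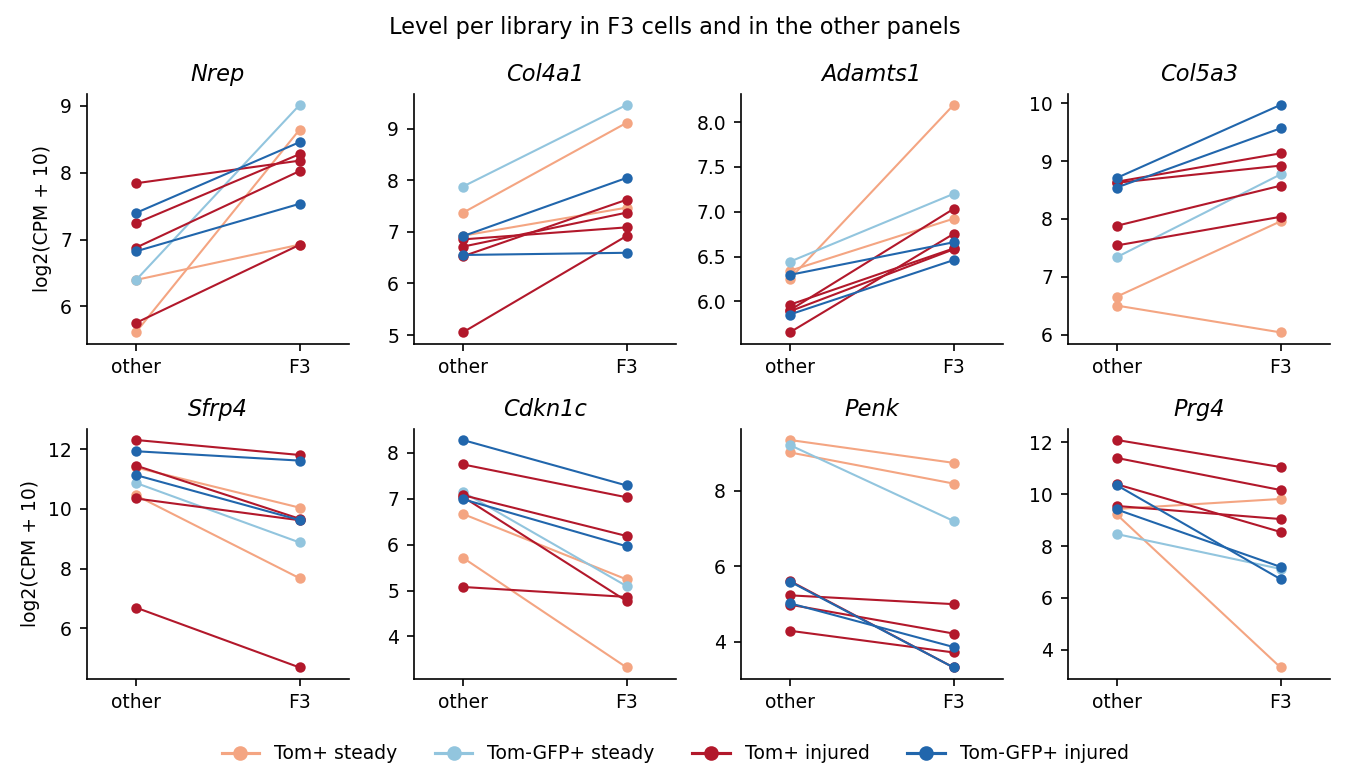
Levels of named genes in F3 cells against cells of the other panels, as log2(CPM + 10), with 1 pair of points for each of the 9 libraries. *Nrep*, *Col4a1* and *Adamts1* were higher and *Sfrp4* lower in F3 in every library, with library to library spread wider than the gap for *Sfrp4*.

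Lists of genes were described by counts beside all genes tested, of which 45.7% had a positive log2 fold change in F3, with a median of -0.03. Of the basement membrane list, the neighbours of collagen XV, 11 of 15 genes were tested, 10 were positive (median 0.29) and 1 passed, *Col4a1*. *Hspg2* (perlecan), the most abundant of them in F3, had means of 256 ± 50.9 and 217 ± 28.7 CPM (log2 fold change 0.22, adjusted p = 0.690 by edgeR). The summed level of the list was 2303, 1142 and 3056 CPM in F3 cells of the steady-state libraries, where the other panels held 1111, 953 and 1449 CPM. In the injured libraries F3 was at 921 to 1651 CPM and the other panels at 749 to 1298 CPM. F3 was higher in every library, with the widest gap in the Tom-GFP+ steady state. Of fibrillar collagens 8 were tested, 7 were positive (median 0.19) and *Col5a3* passed.

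The activin pathway, to which *Acvr2a* belongs, showed little else. Of 8 other receptors tested, 5 were positive (median 0.05) and 0 passed (0 also at an unadjusted p under 0.05). Of 6 ligands 3 were positive (median -0.04) and 0 passed. Of 5 antagonists 1 was positive (median -0.21) and 0 passed. The positive one was *Fst*, with means of 103 ± 106 and 55.0 ± 55.6 CPM (log2 fold change 0.70, adjusted p = 0.453 by edgeR). Of 12 Smads and their targets 8 were positive (median 0.21).

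Genes that go with *Cxcl1* were mostly positive against the other panels together without single genes passing. Of 16 NF-kB targets and feedback genes 15 were positive (median 0.32), 0 passed and 5 had an unadjusted p under 0.05. *Nfkbia*, which encodes the inhibitor of NF-kB, had means of 648 ± 333 and 451 ± 166 CPM (log2 fold change 0.45, adjusted p = 0.338 by edgeR). Of 18 immediate early genes 16 were positive (median 0.44), 0 passed and 6 had an unadjusted p under 0.05. *Junb* was at 1749 ± 1043 and 1032 ± 381 CPM (log2 fold change 0.60, adjusted p = 0.0777 by edgeR). Against the F2 panel alone, 12 of 15 NF-kB genes were positive (median 0.21) with 0 at an unadjusted p under 0.05, and 13 of 18 immediate early genes (median 0.17) with 1, where 47.5% of all genes were positive. The summed level of the NF-kB list was higher in F3 in the other 7 libraries and lower in both Tom-GFP+ injured ones, at 2682 and 1231 CPM against 2768 and 2079 CPM. Immediate early genes are induced when tissue is digested, and the summed level of the list differed between libraries. It was 21028, 11583 and 20149 CPM in F3 cells of the steady-state libraries against 7948, 7960 and 11210 CPM in the other panels. In Tom-GFP+ injured libraries it was 6395 and 3662 CPM in F3 and 8308 and 7194 CPM in the other panels, so there the order was turned. *Cxcl1* was itself read by the rule, and a cell with much *Cxcl1* is more likely to be a member, so the part of digestion in these levels was not tested. Of 11 heat shock genes 10 were positive (median 0.06). Of 10 chemokines and cytokines 5 were positive (median 0.02). *Ccl2* had means of 680 ± 767 and 307 ± 303 CPM and *Il6* 39.1 ± 38.4 and 25.6 ± 16.8 CPM, and neither passed (adjusted p = 0.549 and 0.290 by edgeR).

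Several other lists had fewer positive genes than the 45.7% of all genes. Of 10 complement genes 1 was positive (median -0.26) and 0 passed, with *Serping1* (the C1 inhibitor) at 2175 ± 1258 and 2815 ± 1690 CPM (adjusted p = 0.0777 by edgeR). Of 4 lining genes 0 were positive and *Prg4* passed. Of 6 markers of *Pi16*+ universal fibroblasts 1 was positive and *Ly6c1* passed as lower. Of 8 retinoid and Wnt genes 2 were positive and *Sfrp4* passed. Pan-fibroblast markers were near the share of all genes, with 4 of 9 positive (median -0.12) and 0 passing. Matrix proteases and inhibitors leaned the other way, with 7 of 12 positive (median 0.07) and *Adamts1* passing as higher.

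**Figure D4:**
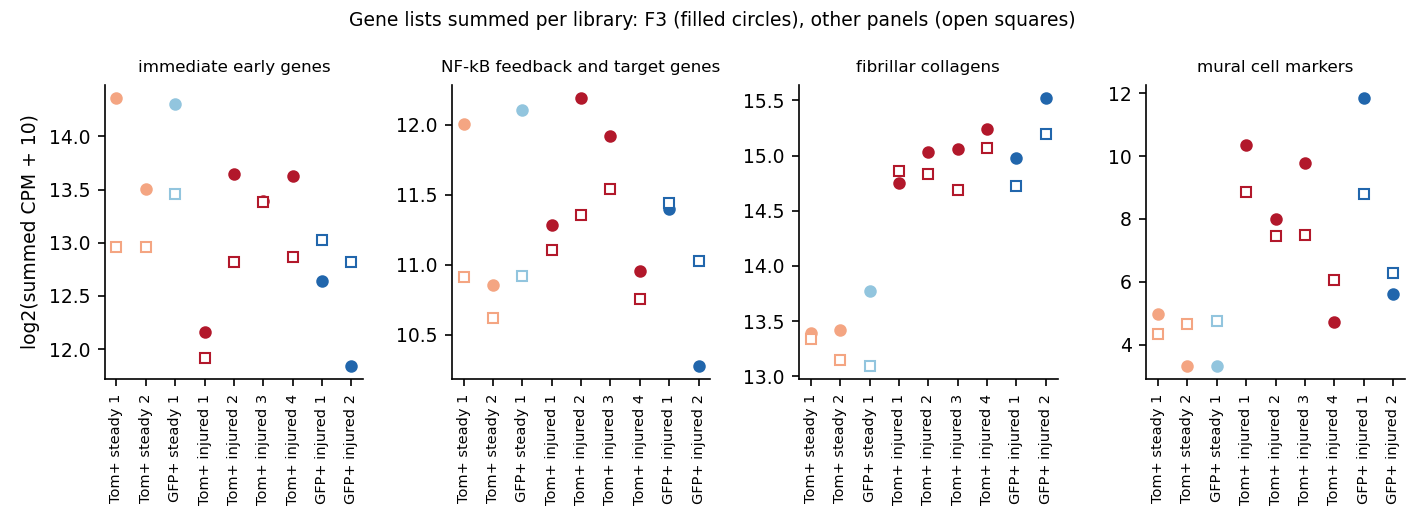
Summed level of 4 gene lists in each library, as log2(summed CPM + 10), with filled circles for F3 cells, open squares for the other panels, and GFP+ standing for Tom-GFP+. Immediate early genes were higher in F3 in the steady-state libraries and lower in both Tom-GFP+ injured libraries, and mural markers reached 3690 CPM in F3 cells of Tom-GFP+ injured library 1.

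Of the panels with at least 5 cells in every library, F1 and F2, the one more like F3 by its mean levels was F2, with a Spearman correlation of 0.925 across genes, which are not independent replicates, against 0.880 for F1. F5 and F6 had that many cells in 2 libraries each and were not compared. The F1 sums came from 308 cells and the F2 sums from 889, and the part of cell number in these correlations was not tested. Against F2 alone, 65 of 5357 genes passed (1.21%) by edgeR, 11 higher and 54 lower in F3. At an unadjusted p under 0.05 there were 608. DESeq2 called 63, of which 18 were higher and 45 lower. Without Tom-GFP+ injured library 1 there were 30, without Tom+ injured library 2 there were 35 and without Tom-GFP+ injured library 2 there were 38.

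Most genes that passed were lower in F3 than in F2. *Cdkn1c* had means of 52.3 and 171 CPM (log2 fold change -1.76, adjusted p = 0.000223 by edgeR). *Sfrp4* (-1.64), *Penk* (-1.82), *Lbp* (-1.43), *Gpnmb* (-1.55), *Myoc* (-2.27) and *Tnmd*, a tendon gene (-2.02), passed as well. *Tnmd* was at -1.22 without cells of high UMI count (adjusted p = 0.393 by edgeR) and lost its call under 4 of 16 alternatives, and *Myoc* was at -1.30 with thinned cells (adjusted p = 0.220 by edgeR). *Dcn* (-0.63), *Igf1* (-1.04), *Ptn* (-1.15) and the *Pi16* gene of universal fibroblasts (-1.55) were lower too. Of these, *Pi16* lost its call under 11 of 18 alternatives (adjusted p up to 0.581 by edgeR), *Ptn* under 8 (up to 0.595), *Dcn* under 5 and *Igf1* under 3. Complement genes were among them: of 10 tested 1 was positive (median -0.50), and *Cfb* (-0.92) and *Serping1* (-0.80) passed. *Cfb* lost its call under 13 of 18 alternatives and *Serping1* under 4. Higher in F3 than in F2 were *Col5a3* (means 458 and 186 CPM, log2 fold change 1.19, adjusted p = 0.00184 by edgeR), *Nrep* (1.12), *Col4a1* (0.92, in 7 of 9 libraries) and *Adamts1* (0.81). Without cells that had at least 3 mural markers the log2 fold change against F2 was 1.05 for *Nrep* (adjusted p = 0.0533 by edgeR) and 0.64 for *Col4a1* (0.363). Without cells of high UMI count it was 1.11 (0.0520) and 0.91 (0.0518), so these calls were lost with little change in size except that of *Col4a1* without mural markers. Of 18 alternatives, *Col4a1* lost its call under 12 (6 of them a library left out), *Adamts1* under 8 and *Nrep* under 7. *Plaur* and *Tnfrsf12a*, the receptors of urokinase and of the cytokine TWEAK, also passed as higher.

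The effect of injury was then read within F3 cells. State went with age, and no library came from a knee opened without a scratch, so these parts cannot be told apart. In Tom+ F3 cells *Cthrc1*, a secreted protein of injured connective tissue, and *Timp1*, an inhibitor of metalloproteases, rose with *Col1a1*, the main chain of type I collagen. *Gpx3*, *Gsn*, *Lpl* and *Penk* fell. Of 3389 genes 37 passed (1.09%) by edgeR, 7 higher (0.207%) and 30 lower (0.885%). Of these, 23 were protein-coding genes, 13 were pseudogenes, all of them lower, and 1 was a lincRNA. At an unadjusted p under 0.05 there were 539, and DESeq2 called 70. State nearly coincides with the format of the gene list and goes with the depth of the cells and with the share of pseudogene UMIs, and the fall of pseudogenes cannot be told apart from these. The count rested on few libraries. It was 6 without Tom+ steady-state library 1, 4 without Tom+ injured library 2, 18 without library 3, 22 without library 4 and 74 without Tom+ injured library 1. Mural UMIs were higher in most injured libraries, as given above, and without the cells that had at least 3 mural markers 54 genes passed.

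*Cthrc1* (ENSMUSG00000054196, chromosome 15, 39076932 to 39087121) had 0 UMIs in F3 cells of both Tom+ steady-state libraries. In the Tom+ injured libraries it was at 2750, 1797, 2584 and 1138 CPM, a mean of 2067 ± 746 CPM (SD, n = 4). Against a floor of 3 UMIs over the steady-state group (36.6 CPM) this was at least 56.5-fold higher (adjusted p = 0.00419 by edgeR). The other panels moved too, from 45.4 and 35.6 CPM to 3953, 2350, 2749 and 1633 CPM. The difference between F3 and the other panels in this change was not tested. The call was lost with thinned cells, where Tom+ steady-state library 2 had 2 F3 cells and did not enter. It was also lost with the replicate block. In *Ptprc*+ cells *Cthrc1* UMIs were found in 4.29%.

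*Timp1* (chromosome X, 20870166 to 20874735) was at 65.2 and 139 CPM in the Tom+ steady state and at 3941, 1322, 1590 and 868 CPM in the Tom+ injured state (log2 fold change 4.21, adjusted p = 0.045 by edgeR). *Col1a1* (chromosome 11, 94936224 to 94953042) had means of 2145 ± 668 (SD, n = 2) and 10466 ± 1656 CPM (SD, n = 4), a log2 fold change of 2.26 (SE 0.38, adjusted p = 0.0207 by edgeR). For both genes the groups did not overlap, and yet the calls were lost without either Tom+ steady-state library and without Tom+ injured library 2 or 3 at log2 fold changes of 3.81 to 4.65 for *Timp1* and 2.05 to 2.45 for *Col1a1*. With thinned cells the log2 fold changes were smaller, at 1.94 and 1.43, but Tom+ steady-state library 2 did not enter there. Depth and the loss of that library cannot be told apart in these values. *Tnfrsf12a* (10.9 to 199 CPM, log2 fold change 3.90), *Csrp2*, a LIM domain protein of contractile cells (49.6 to 596 CPM, 3.52), *Tm4sf1*, a membrane protein (130 to 888 CPM, 2.78), and *Ppic*, a cyclophilin (305 to 1120 CPM, 1.82), were the other 4 that rose. The level of *Tnfrsf12a* in the Tom+ steady state was 1 UMI in library 1 and 0 in library 2, so its fold rests on 1 UMI. Without library 1 its log2 fold change was 8.19, and DESeq2 gave an adjusted p of 0.198. Of 18 alternatives, *Ppic* lost its call under 13, *Tnfrsf12a* and *Csrp2* under 9 each and *Tm4sf1* under 4.

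*Gpx3* (ENSMUSG00000018339, chromosome 11, 54902453 to 54910377), a secreted glutathione peroxidase, was at 4366 and 4316 CPM in the Tom+ steady state and at 381, 532, 380.3 and 671 CPM in the Tom+ injured state (log2 fold change -3.19, SE 0.37, adjusted p = 0.00535 by edgeR). Its call was lost under 1 of 18 alternatives, the replicate block (adjusted p = 0.0518 by edgeR). *Gsn*, the actin-severing protein gelsolin, had means of 31379 and 2183 CPM (-3.92, adjusted p = 0.0207 by edgeR), and Tom+ injured library 1 was lowest at 346 CPM. *Penk* fell from 350 to 8.45 CPM (-5.34), *Abca8a*, a lipid transporter, from 209 to 3.53 CPM (-5.95) and *Lpl*, lipoprotein lipase, from 511 to 49.0 CPM (-3.43). *Adamts5*, an aggrecanase, fell from 280 to 63.8 CPM (-2.21, adjusted p = 0.0458 by edgeR), a call lost under 11 of 18 alternatives. With the rule applied to thinned cells the log2 fold change of *Adamts5* was -0.11, with Tom+ steady-state library 1 as the only steady-state Tom+ library. *Fst*, the activin binder, was at 174 and 334 CPM in the steady state and 0, 28.0, 17.3 and 27.5 CPM in the injured state (-3.97, adjusted p = 0.040 by edgeR), the only gene of the activin lists that passed. The calls of *Fst*, *Lpl*, *Gsn* and *Penk* were lost under 7, 6, 4 and 3 of 18 alternatives, thinned cells among them for each.

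Single cells set the levels of *Clu* and *Cxcl13*, which both passed as lower. *Clu* (clusterin) was at 4900 CPM in Tom+ steady-state library 2 and 21.7 CPM in library 1, and 66.9% of its UMIs came from 1 cell. Without library 2 its log2 fold change was 0.51. *Cxcl13*, a chemokine for B cells, was at 1282 CPM in library 1 and 0 in library 2, with 61.3% of its UMIs from 1 cell. Without library 1 its log2 fold change was 1.57. The fall of these genes thus depended on 1 library each.

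Of 8 fibrillar collagens tested, 8 were positive with injury in Tom+ F3 cells (median 1.42, or 1.31 with a gene at 0 in the steady state set at its bound), and *Col1a1* passed. Over all genes 53.4% were positive, with a median of 0.08. *Col3a1* had means of 5005 ± 1801 and 12877 ± 2244 CPM (log2 fold change 1.28, adjusted p = 0.192 by edgeR). Of 16 matrix wound genes 14 were positive (median 2.64, or 2.11 with 5 genes at their bounds, which could only be positive), 0 passed and 9 had an unadjusted p under 0.05. Among them *Tnc* (tenascin C) had means of 0 and 377 ± 194 CPM and *Lrrc15* of 0 and 88.7 ± 18.1 CPM. *Acta2* had 0 and 307 ± 317 CPM. All 7 injury genes that the study named were positive (median 1.96), and *Cthrc1* and *Timp1* passed. The study chose them on these samples, so their direction is no independent evidence. *Postn* (periostin) was at 130 ± 184 and 1079 ± 415 CPM (adjusted p = 0.141 by edgeR). The other panels moved the same way. Their fibrillar collagens summed to 10348 and 9095 CPM in the Tom+ steady state and 26390 to 34383 CPM in the Tom+ injured state. Their matrix wound genes summed to 3514 and 3397 CPM and then 5584 to 6915 CPM. The difference between F3 and the other panels in these changes was not tested.

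Of 10 complement genes 0 were positive (median -1.71), and *Clu* alone passed. The list fell in the other panels too, from a sum of 7713 and 8028 CPM in the Tom+ steady state. In the Tom+ injured state it was at 602, 2787, 4694 and 4667 CPM there. In F3 cells *C3* had means of 1919 ± 942 and 495 ± 444 CPM (log2 fold change -2.03, adjusted p = 0.277 by edgeR) and *Serping1* 3932 ± 30.8 and 1332 ± 935 CPM (-1.60, adjusted p = 0.323 by edgeR). Of 18 immediate early genes 3 were positive (median -0.85) and 0 passed. Of 10 basement membrane genes 3 were positive (median -0.77) and 0 passed. Of 5 cell cycle genes tested 0 passed (0 also at an unadjusted p under 0.05), and 4 of them were at 0 in the Tom+ steady state, so that their sign was set by the filter on low counts. *Pcna*, of the replication fork, was in 44 F3 cells (43.1%), 8 of them of the steady state. *Ccnb2* was in 14, *Cdk1* in 13, *Top2a* in 7 and *Mki67* in 5, all of the injured state, where cells were read more deeply. The summed level of the list was highest in Tom+ injured library 1, at 638 CPM in F3 and 430 CPM in the other panels. It was 0 in F3 cells of Tom+ steady-state library 1 and of Tom-GFP+ injured library 2. In F3 cells of Tom+ steady-state library 2 it was 139 CPM, above Tom+ injured libraries 3 and 4 at 43.2 and 60.5 CPM.

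**Figure D5:**
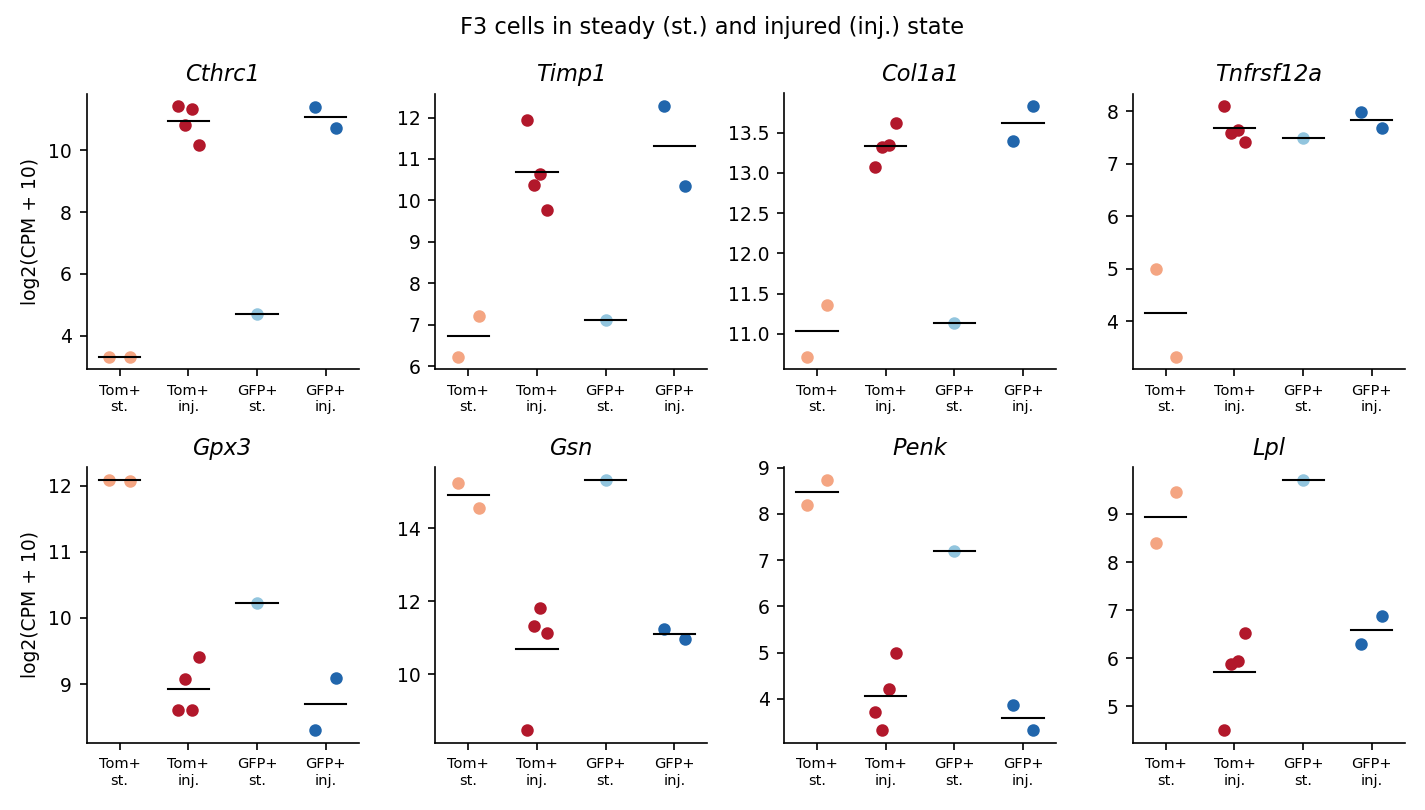
Levels of named genes in F3 cells by library and group, as log2(CPM + 10), where GFP+ stands for Tom-GFP+ and lines mark the mean of the log values. *Cthrc1*, *Timp1* and *Col1a1* were higher and *Gpx3* and *Gsn* lower in every Tom+ injured library than in either Tom+ steady-state library.

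In Tom-GFP+ F3 cells 7 of 3389 genes passed (0.207%) by edgeR, 1 higher and 6 lower. At an unadjusted p under 0.05 there were 426, and DESeq2 called 34. *Cthrc1* rose, from 16.1 CPM (2 UMIs) in the steady-state library to 2678 and 1690 CPM in the injured ones (log2 fold change 6.90, adjusted p = 0.0266 by edgeR), a fold that rests on 2 UMIs. *Pcolce2*, an enhancer of procollagen processing, was at 532 CPM and then 41.0 and 19.5 CPM (-4.08). *Txnip*, which binds thioredoxin, was at 621 CPM and then 38.7 and 58.6 CPM (-3.88), but 44 of its 77 UMIs in the steady-state library came from 1 cell. *Col4a2* was at 645 CPM and then 36.5 and 87.9 CPM (-3.66, adjusted p = 0.0385 by edgeR). The other 3 were pseudogenes, of which *Rpl36a-ps2* was at 274 CPM and then 0, at least 49.5-fold lower against a floor of 3 UMIs over the group. With 1 steady-state library the direction rests on that library, which held the highest *Col4a1* level of all. Without either Tom-GFP+ injured library, without Tom+ injured library 2, or without cells of high UMI count, 0 genes passed. There were 69 without Tom+ injured library 1 and 3 without Tom+ injured library 3.

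Of the genes called in Tom+ cells, some had log2 fold changes near those values in Tom-GFP+ cells without passing: *Timp1* 4.45 (adjusted p = 0.125 by edgeR), *Col1a1* 2.39 (0.0899) and *Gsn* -4.33 (0.0862). For others the value was nearer 0, at -0.56 for *Fst* and 0.26 for *Tnfrsf12a*. *Cthrc1* passed in both lineages. *Gpx3* was at 1185 CPM in the Tom-GFP+ steady state, below the Tom+ steady state, and 305 and 537 CPM in the injured state (-1.62, adjusted p = 0.223 by edgeR). Of 18 immediate early genes 1 was positive (median -2.33), 0 passed and 12 had an unadjusted p under 0.05. Over all genes 51.0% were positive with injury in Tom-GFP+ F3 cells, with a median of 0.02. The test of the difference between the injury effects of the lineages called 0 of 3389 genes (0.0%) by edgeR and 0 by DESeq2, with 142 at an unadjusted p under 0.05 and a smallest adjusted p of 0.999863. *Tnfrsf12a* (difference of log2 fold changes -3.63, unadjusted p = 0.00369 by edgeR) and *Fst* (3.41, unadjusted p = 0.0122 by edgeR) were among those. *Fst* was at 137 CPM in the Tom-GFP+ steady state and 91.2 and 117 CPM in the injured state, where Tom+ F3 cells were at most at 28.0 CPM. Neither difference passed, and the interval around each is wide with 1 Tom-GFP+ steady-state library. Both genes were picked from the 142, and the value of *Tnfrsf12a* also rests on its 1 UMI in the Tom+ steady state.

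Between Tom+ and Tom-GFP+ F3 cells of the injured state 1 of 3389 genes passed (0.0295%) by edgeR. DESeq2 called 2, and 183 had a p under 0.05 before adjustment. It was the reporter tdTom, at a mean of 517 ± 157 CPM (SD, n = 4) and 3.42 CPM (n = 2), on which the cells had been sorted (log2 fold change 6.44, adjusted p = 0.00341 by edgeR). Without Tom-GFP+ injured library 1 it did not pass (adjusted p = 0.0893 by edgeR), nor with a block for the replicate number over libraries 1 and 2 (adjusted p = 0.369 by edgeR), where fewer libraries entered. H2BeGFP had means of 239 and 486 CPM (log2 fold change -1.04, adjusted p = 0.863 by edgeR). Of 18 immediate early genes 18 were positive in Tom+ cells (median 1.13), and 0 passed. Over all genes 50.8% were positive in this comparison, with a median of 0.01.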

How the data were processed

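Cells from digested mouse knees were sorted and sequenced with 10x Genomics 5′ chemistry. The authors deposited raw, unnormalized UMI counts for each gene and barcode of 9 libraries. The headers of 5 matrices name Cell Ranger 3.0.2, and the submitters' processing notes name GRCm38.p6. Other upstream settings are not given in the sources used here. Positions are from GENCODE vM21 on GRCm38, where 54495 of 54534 gene IDs matched. The members and gene lists were chosen with earlier results of these data known.

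Counts were summed per library over the cells of a class (at least 5 cells) and tested with edgeR 4.0.16 in R 4.3.3 (TMM scaling, filterByExpr, quasi-likelihood F test, adjusted by Benjamini-Hochberg, threshold 0.05). F3 cells were tested against other panels with the library as a block, and between groups with group means over all 9 libraries. DESeq2 1.42.0 was an alternative. The 20 gate and panel genes stayed out of tests, and so were described only. Standard errors are the log2 fold change over the square root of F. The edgeR fit was tried on simulated counts for F3 against the other panels and for injury in Tom+ cells. The other contrasts, the DESeq2 fits and the tests of shares were not tried on simulated data. Which Tom+ and Tom-GFP+ libraries share a mouse is not given in the labels, so libraries were treated as independent. Genes were named when past 0.05 with at least 100 CPM in the higher group and the same direction in every library or groups that did not overlap, up to 12 in each direction, with list members, panel genes and reporters. Other called genes named in the text (*Prg4*, *Col5a3*, *Phlda1*, *Phldb1*, *Ddah1*, *Myoc*, *Gpnmb*, *Pmp22*, *Agtrap*, *Pcolce2*, *Plaur*, *Txnip* and the like) were chosen after their values were seen where the rule did not name them. Alternatives were DESeq2, no filter on low counts, stricter cells, thinned cells, each library left out, each state alone, a block for replicate number or list format, another denominator, a rule without *Cxcl1*, protein-coding genes only, and cells with mural markers or of high UMI count left out. Figures were drawn with matplotlib 3.10.9. Results for a further called gene are not reported here.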

Additional observations from a re-analysis of the deposited data

Results flagged for a closer look

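Among groups of 4 libraries, 57 were examined for a library far from the other 3, and 11 had one by Dixon's criterion, where chance gives about 1 in 20. All were Tom+ injured libraries, the only group of that size, and all values are CPM in F3 cells. In library 1, which has the older gene list, 5 pseudogenes stood above the others. *Rpl19-ps11* was at 124 (others 5.50 to 17.3), *Rps27a-ps2* at 111 (11.0 to 21.0), *Gm9843* at 203 (49.0 to 60.5), *Gm9616* at 92.1 (5.50 to 17.3) and *Rpl36a-ps2* at 63.5 (6.99 to 11.0). In library 2 the lining gene *Htra4* was at 90.9 (others 8.64 to 16.5). In library 3 the growth factor gene *Ptn* was at 458 (others 224 to 251) and *Pcolce2* was low at 77.8 (others 105 to 110). In library 4 *Myoc* was at 121, and *Gm31378* and *Cxcl13* were at 5.50 each, with the other libraries at 0 for all 3 genes. A level of 5.50 there is 1 UMI. When the other 3 libraries are at 0, any UMI gives a flag, so those of *Gm31378* and *Cxcl13* say little.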

How the results depend on the processing

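The calls of F3 cells against the other panels numbered 21, and 379 with no filter on low counts, 48 in the steady-state libraries alone, 8 in the injured libraries alone and 43 without cells above 2 times the median UMIs of their library. Leaving out 1 library gave 16 to 27. Against F2 the count of 65 became 319 with no filter, 22 with thinned cells, 6 in the steady state alone, 28 in the injured state alone and 39 without cells of high UMI count, and 30 to 64 with 1 library left out. With injury in Tom+ F3 cells the count of 37 became 70 with DESeq2, 202 with no filter, 8 with thinned cells and 13 over protein-coding genes only, and 4 to 74 with 1 library left out. In Tom-GFP+ F3 cells the count of 7 became 34 with DESeq2, 182 with no filter, 0 with thinned cells, 18 with the list format as a block, 0 without cells of high UMI count and 4 over protein-coding genes only, and 0 to 69 with 1 library left out. The difference between lineages in the effect of injury gave 11 genes with no filter. Between lineages in the injured state the count of 1 became 2 with DESeq2, 58 with no filter and 0 with thinned cells, and 0 to 1 with 1 library left out. Thinning and the states alone left fewer cells, libraries and genes, and otherwise the cause was not tested. In gene tests on thinned cells, Tom+ steady-state library 2 (2 F3 cells) and Tom-GFP+ injured library 2 (0) did not enter. Their groups then had 1 library each. The log2 difference of the F3 share with injury was -1.07 in Tom+ and 4.53 in Tom-GFP+ cells when *Cxcl1* was not read, which left 9 cells, 0 of them in the Tom-GFP+ steady state, so the second value is a fit against 0 cells and not a measured size. With 1 library left out it ran from 0.20 to 1.27 and from -0.91 to 0.18. Between lineages it was 0.86 with thinned cells and 0.23 without cells of high UMI count, and -0.67 to 0.42 with 1 library left out. The log2 fold change of *Clu* in Tom+ injury turned to 0.51 without Tom+ steady-state library 2, and ran down to -7.02 with 1 library left out. With thinned cells, where that same library did not enter, the value of *Clu* was 2.51. That of *Cxcl13* turned to 1.57 without Tom+ steady-state library 1 and ran down to -9.91. Leaving out cells with mural markers or of high UMI count, and keeping protein-coding genes only, were chosen after seeing the data. Genes could not be fitted when *Cxcl1* was not read, nor the results that need the Tom-GFP+ steady state without its only library.

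Libraries of the 2 sorts came in part from the same mice, but the labels do not tie replicate numbers to mice, so the numbers were not taken to pair them. Across 3389 genes, deviations of same-numbered libraries from their group means correlated at -0.08 and 0.00 between Tom+ steady and injured states, at -0.08 and -0.08 between the Tom+ steady and Tom-GFP+ injured states, and at 0.33 and 0.13 between the lineages of the injured state. There Tom+ library 4 and Tom-GFP+ library 2, of unlike number, correlated at 0.28, and the deviations of 2 libraries mirror each other, so the correlations do not show that equal numbers pair. With a replicate block over libraries numbered 1 and 2, 0 genes passed for injury in Tom+ cells and 0 between lineages, where Tom+ injured libraries 3 and 4 and the Tom-GFP+ steady-state library did not enter, and the share differences were 0.46 and -0.48 (log2).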
